A study of Rattus norvegicus with 6 samples.

Results

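Collagens are the main structural proteins of the cornea. Each collagen molecule is a triple helix of alpha chains, each chain is the product of its own gene, and the chains of a type assemble either with copies of themselves or with partner chains. Fibrillar collagens build the ordered fibrils of the stroma, basement membrane collagens form sheets under the epithelium, beneath the endothelium and around vessels, and other classes decorate fibrils, anchor cells or build networks. In a healing or rejected graft, collagen genes are expressed by keratocytes, by activated fibroblasts, by vessel cells and by the epithelium.

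The collagen chain genes described here are the rows of the count table whose symbol consists of Col, a type number, the letter a and a chain number. There were 43 such genes among 17771 listed. They were grouped by textbook class into 11 fibrillar, 6 basement membrane, 8 FACIT (collagens that attach to the surface of fibrils), 3 network, 4 transmembrane, 6 type VI microfibril, 2 multiplexin and 3 anchoring or other chains. A filter on low counts left 36 chains for testing among 14213 genes. The 7 chains that did not pass were Col10a1, Col26a1, Col2a1, Col6a4, Col9a1, Col9a2 and Col9a3, with 7 to 108 counts each over all libraries and together 0.00670% of the collagen counts.

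The RNA came from whole corneas of Wistar recipients grafted with a cornea from donors labelled SD, and was sequenced in bulk. After surgery the recipients were injected intraperitoneally every day up to day 7, with resveratrol solution (3 libraries) or with saline (3 libraries, called control). All 6 libraries came from grafted corneas, and none from an ungrafted one. The labels name neither a dose nor an age. Nor do they state that each library is a different animal, so the p-values rest on the spread among these libraries, part or all of which may be technical.

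Total counts per library were 36904770 to 37301669 in resveratrol and 35068936 to 37460756 in control. Krt12, the keratin of corneal epithelium, was the most counted gene, at 35071 ± 2934 CPM in resveratrol and 34169 ± 1076 CPM in control (CPM on the TMM scale, SD, n = 3 each). Of 8 listed corneal epithelial markers 7 had a row (Krt3 had none), of which 0 reached an unadjusted p under 0.05, and their summed level was 83059 to 97217 CPM in resveratrol and 83890 to 92960 CPM in control. Conjunctival epithelial markers (4 of 4 with a row) summed to 5448 to 9219 CPM in resveratrol and 7741 to 9350 CPM in control, nearly all of it Krt13 and Krt4, with Muc5ac under 1 CPM in every library. Of the cartilage list (3 of 3 with a row), Matn1 and Comp were under 1 CPM in every library, while Acan was at 1.21 to 5.85 CPM in resveratrol and 3.68 to 7.21 CPM in control. Melanocyte markers (4 of 4 with a row) summed to 2.26 to 6.94 CPM in resveratrol and 2.10 to 8.90 CPM in control, with Tyr and Mlana under 1 CPM in every library, and the 3 skeletal muscle markers with a row of 4 listed were all under 1 CPM. Descriptions of replicate 1 in each group end in Sep and those of the remaining 4 libraries in Oct, with no word in the labels on what these endings stand for.

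Most collagen chains had lower levels in resveratrol corneas. The mean was lower for 30 of the 36 tested chains, or 83.3%, against 51.2% of all tested genes, and higher for 6, against 48.8%. The median log2 fold change (resveratrol minus control) was -0.49, against -0.01 over all tested genes. The abundant chains of types I, III, IV, V and VI had lower levels, whereas Col17a1, a transmembrane collagen of the epithelium, and Col14a1, a fibril-associated collagen, had higher levels. For 16 chains every resveratrol library lay below every control library, 44.4% of those tested, against 14.4% of all tested genes. For 2 chains every resveratrol library lay above every control library, 5.56%, against 12.2% of all tested genes. Bulk tissue cannot tell fewer cells of a type apart from less RNA per cell.

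With edgeR's quasi-likelihood test and Benjamini-Hochberg adjustment over all genes, 0 chains passed an adjusted p of 0.05, against 0% of all tested genes. The smallest adjusted p among the chains was 0.1002, shared by Col3a1, Col4a2, Col5a3 and Col6a2. That value was also the smallest over all tested genes. At an unadjusted p under 0.05 the same test gave 17 lower chains, 47.2% of those tested, against 11.7% of all tested genes, and 2 higher chains, 5.56%, against 7.84%. DESeq2, run as an alternative on the same counts, called 14 chains lower at an adjusted p under 0.05, where it called 4.64% of all genes lower. It called 0 chains higher, where it called 2.23% of all genes higher. Since the main test called no chain, levels below are given as lower or higher means, and DESeq2 calls are named as such.

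**Figure D1:**
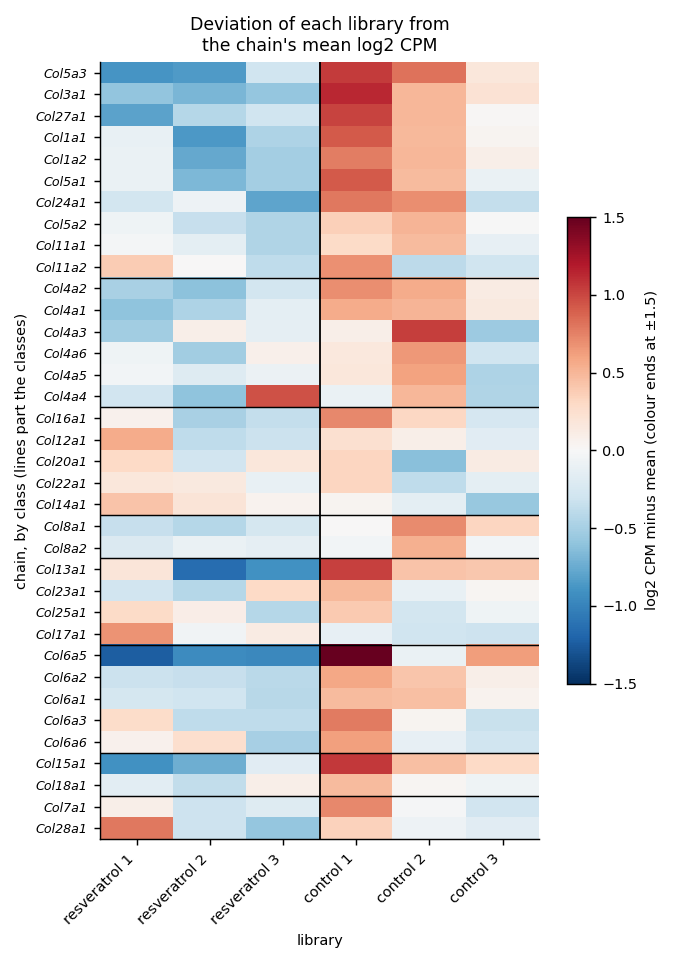
Heat map of the 36 tested chains (rows, by class) in the 6 libraries (columns, resveratrol left of control). Colour is the library's log2 CPM minus the chain's mean over all libraries, with red above and blue below the mean; control 1 was the highest library for 24 chains and resveratrol 2 the lowest for 14, while control 3 was paler than the other control libraries.

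The control libraries differed among themselves in the size of this signal. Control 1 was the highest library for 24 of the 36 chains and control 2 for 7, whereas control 3 was the highest for 0. The median deviation of the chains from their own mean log2 CPM was -0.10, -0.37 and -0.31 in resveratrol libraries 1, 2 and 3, and 0.53, 0.45 and -0.07 in control libraries 1, 2 and 3. Control 3 thus lay just above resveratrol 1. For all tested genes the same deviations were between -0.01 and 0.02 in every library.

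Within the libraries that share a description ending, the direction was mostly the same. The Sep pair, 1 library per group and so without a test, had lower levels in resveratrol for 32 of 36 chains, with a median log2 difference of -0.62. The Oct libraries had lower means in resveratrol for 28 of 36 chains, with a median of -0.43. In both endings 26 chains were lower, 72.2%, against 34.3% of all tested genes, and these 26 included all 14 that DESeq2 called. The chains higher in both were Col14a1 and Col17a1. None of the 14 called chains overlapped between the groups, nor did Col14a1 and Col17a1. Chains without overlap must go the same way in both endings, so for them the split adds no support.

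**Figure D2:**
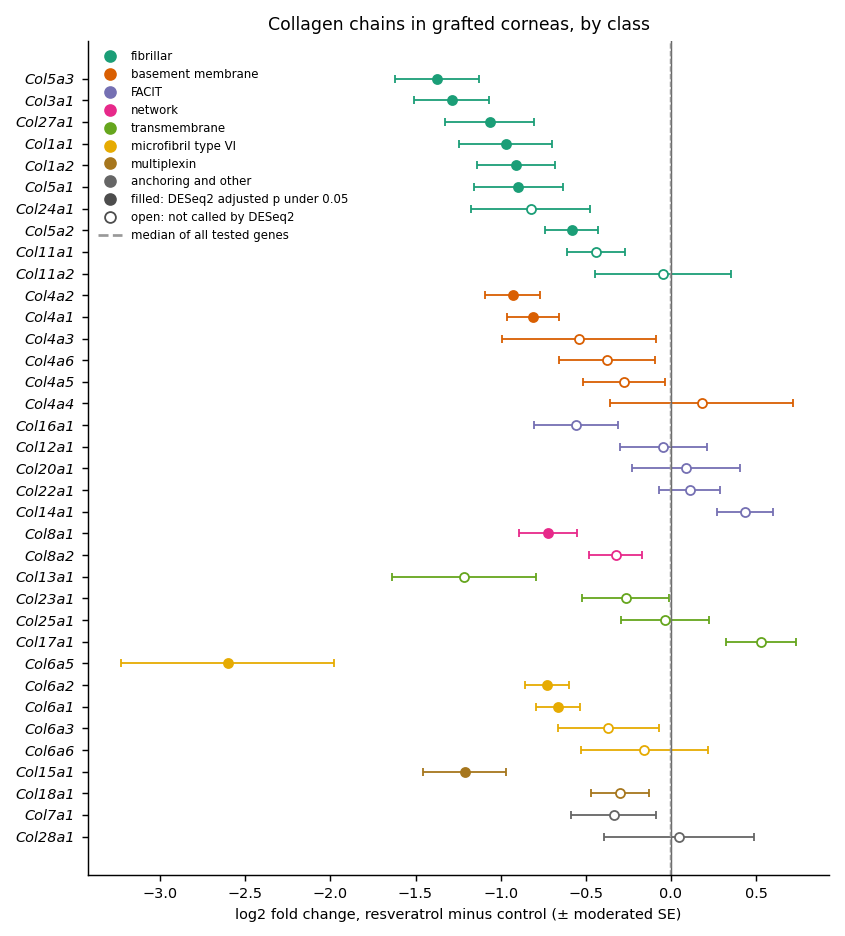
Log2 fold change of each tested chain, resveratrol minus control, from edgeR, with the moderated standard error from limma as the bar, coloured by class. Filled points mark the 14 chains that DESeq2 called, all to the left of 0; Col17a1 (0.53) and Col14a1 (0.44) lie farthest to the right.

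Fibrillar collagens were the class with the lowest median. All 10 tested chains had lower means in resveratrol, and the class median was -0.90. Of them 9 had an unadjusted edgeR p under 0.05, 7 had no overlap between the groups and 7 were called by DESeq2. Over all tested genes, 51.2% had lower means, 11.7% were lower at that p and 14.4% were lower without overlap. DESeq2 called 4.64% of all genes lower. These shares also stand beside the counts of the other classes below. Type I collagen, a heterotrimer of the Col1a1 and Col1a2 products, makes up most of the stromal fibrils. Col1a1 was at 4540, 2693 and 3547 CPM in resveratrol libraries 1, 2 and 3, against 9242, 6859 and 5030 CPM in control libraries 1, 2 and 3. Every resveratrol library lay below every control library, and resveratrol 1 came close to control 3. The log2 fold change was -0.97 ± 0.27 (SE; edgeR adjusted p = 0.137, DESeq2 adjusted p = 0.00518). Without control 1, DESeq2 gave Col1a1 an adjusted p of 0.0525. In the GRCr8 annotation Col1a1 overlaps Sgca, a gene at 0.295 to 0.858 CPM here, and no source used here tells whether reads were counted by strand.

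Col1a2 was at 2998, 1888 and 2256 CPM in the resveratrol libraries, against 5466, 4521 and 3417 CPM in the control libraries. As for Col1a1, the groups did not overlap and control 3 was the lowest control library. Its log2 fold change was -0.91 ± 0.23 (edgeR adjusted p = 0.126, DESeq2 adjusted p = 0.00225). The ratio of Col1a1 to Col1a2, taken per length from the deposited FPKM, was 1.16, 1.09 and 1.20 in resveratrol and 1.30, 1.16 and 1.13 in control, and the groups overlapped. The promoter window of Col1a2 in RefSeq's GRCr8 table (chr4:33518307-33518606, plus strand, 250 bases before to 50 after the annotated start) is shown because this chain is among the most abundant and its window holds 2 of the 3 motifs searched. Capitals mark CCAAT, here as its reverse complement ATTGG beginning 221 bases before the start, and TATAAA beginning 170 bases before it.
Col1a2: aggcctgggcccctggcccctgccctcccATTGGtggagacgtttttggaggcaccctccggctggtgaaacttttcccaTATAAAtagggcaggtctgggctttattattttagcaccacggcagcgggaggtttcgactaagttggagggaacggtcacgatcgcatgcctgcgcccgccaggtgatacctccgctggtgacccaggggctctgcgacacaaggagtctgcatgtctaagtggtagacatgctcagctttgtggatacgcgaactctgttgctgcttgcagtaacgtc

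Col3a1, whose homotrimer is prominent in early wound repair and in vessel walls, had the smallest p-value of all chains. Its levels were 1194, 1115 and 1202 CPM in the resveratrol libraries, against 3939, 2542 and 2095 CPM in the control libraries. The resveratrol libraries lay close together, at a mean of 1170 ± 47.9 CPM, while the control libraries spread widely, at 2859 ± 962 CPM. The log2 fold change was -1.29 ± 0.22 (edgeR adjusted p = 0.1002, DESeq2 adjusted p = 3.18e-06), with a difference of -1.72 in the Sep pair and -0.995 in the Oct libraries. Relative to Col1a1, the FPKM ratio of Col3a1 was 0.321, 0.506 and 0.414 in resveratrol and 0.521, 0.453 and 0.509 in control, with overlap.

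Type V collagen co-assembles with type I and limits the diameter of corneal fibrils. Of its chains, Col5a3 had the largest difference, with 87.6, 90.1 and 132 CPM in the resveratrol libraries against 336, 284 and 183 CPM in the control libraries. Again the groups were separate and control 3 was nearest to resveratrol. The log2 fold change was -1.37 ± 0.25 (edgeR adjusted p = 0.1002, DESeq2 adjusted p = 1.57e-05). Col5a1 averaged 420 ± 88.4 CPM in resveratrol and 782 ± 266 CPM in control, without overlap, although its highest resveratrol library (519) and its lowest control library (520) nearly met. Col5a2 averaged 512 ± 71.0 CPM in resveratrol and 767 ± 136 CPM in control, also without overlap. DESeq2 called both (adjusted p = 0.0130 for Col5a1 and 0.0172 for Col5a2), but each kept its call in only 2 of the 6 fits that left out a library, losing it without resveratrol 2, resveratrol 3, control 1 or control 2. Col3a1 and Col5a2 are neighbouring genes in the RefSeq annotation, with log2 fold changes of -1.29 and -0.58.

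The remaining fibrillar chains were much less abundant. Col27a1 was at 6.39, 8.27 and 9.11 CPM in resveratrol and 22.6, 15.8 and 11.4 CPM in control, without overlap (-1.07 ± 0.26; DESeq2 adjusted p = 0.00546, and 0.0565 without resveratrol 1). Col24a1 (-0.82 ± 0.35) and Col11a1 (-0.44 ± 0.17) had an unadjusted edgeR p of 0.0455 and 0.0342, overlapped between the groups and were not called by DESeq2. Col11a2, at 0.606 to 1.07 CPM in resveratrol and 0.599 to 1.32 CPM in control, differed by -0.05 ± 0.40. Col2a1, the main collagen of cartilage, had 7 counts in all.

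**Figure D3:**
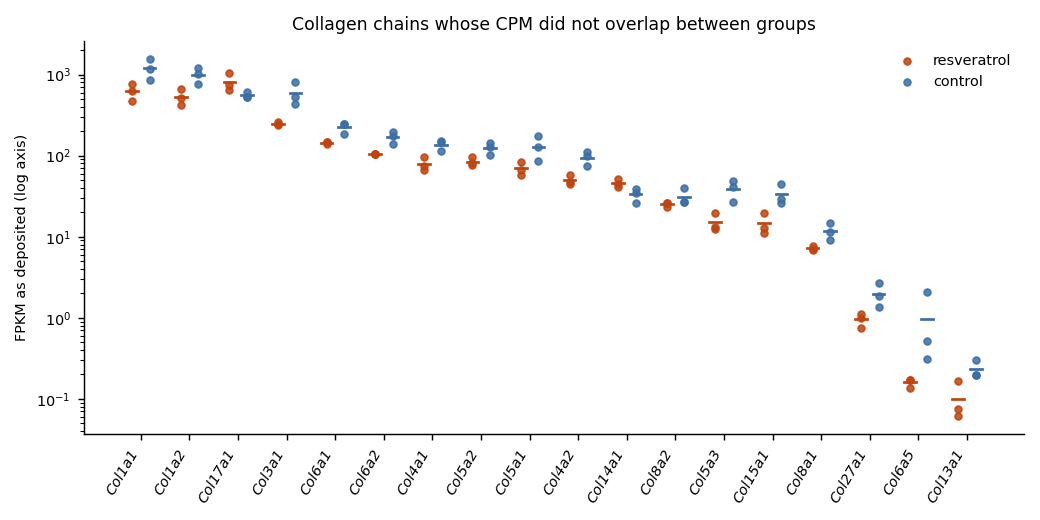
FPKM as deposited (log axis) of the 18 chains whose CPM did not overlap between the groups, sorted by mean FPKM. Each point is a library, short bars are group means, and resveratrol stands left of control; Col17a1 and Col14a1 are the chains with resveratrol above control.

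Markers of keratocytes, of myofibroblasts and pericytes, and of leukocytes were set beside these values. Keratocyte markers (6 of 6 with a row, among them lumican and keratocan) summed to 3299 to 5011 CPM in resveratrol and 4347 to 5163 CPM in control, with overlap, and 0 of the 5 tested had an unadjusted p under 0.05; Ptgds was under 1 CPM in every library. Myofibroblast and pericyte markers (8 of 8 with a row, none near 0 throughout) summed to 415 to 479 CPM in resveratrol and 608 to 749 CPM in control, without overlap. Their median log2 fold change was -0.68, with 7 lower means and 1 higher mean, that of Cspg4 (0.32, with overlap). At an unadjusted p under 0.05, 5 of 8 were lower (62.5%, against 11.7% of all tested genes). Leukocyte markers (5 of 5 with a row) all had lower means, 4 of them with an unadjusted p under 0.05 (80.0%, against 11.7% of all tested genes). They summed to 160 to 302 CPM in resveratrol and 234 to 608 CPM in control, with overlap. The part of these cell types in the collagen values was not tested.

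Of the 6 basement membrane chains, 5 had lower means, 2 without overlap, with an unadjusted p under 0.05 and called by DESeq2, and the class median was -0.46. Without control 2 that median was -0.046. Col4a1 and Col4a2, whose products form the common type IV heterotrimer of vessels and most basement membranes, were both lower in resveratrol. Col4a1 was at 447, 490 and 610 CPM in the resveratrol libraries, against 999, 961 and 750 CPM in the control libraries. Col4a2 was at 306, 279 and 354 CPM in the resveratrol libraries, against 694, 628 and 464 CPM in the control libraries. In both genes resveratrol 3 and control 3 were the libraries nearest to the other group, without overlap. The log2 fold changes were -0.81 ± 0.15 for Col4a1 (edgeR adjusted p = 0.103, DESeq2 adjusted p = 0.000294) and -0.93 ± 0.16 for Col4a2 (edgeR adjusted p = 0.1002, DESeq2 adjusted p = 3.84e-05). The per-length ratio of Col4a1 to Col4a2 was 1.40 to 1.68 in resveratrol and 1.37 to 1.54 in control, with overlap.

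These genes lie head to head on rat chromosome 16, so their sequences are shown. In RefSeq's GRCr8 table their annotated starts are 77 bases apart and the windows, Col4a1 at chr16:84885347-84885646 on the plus strand and Col4a2 at chr16:84885471-84885770 on the minus strand, have 176 bases in common. Capitals mark the shared bases, which read as reverse complements of each other.
Col4a1: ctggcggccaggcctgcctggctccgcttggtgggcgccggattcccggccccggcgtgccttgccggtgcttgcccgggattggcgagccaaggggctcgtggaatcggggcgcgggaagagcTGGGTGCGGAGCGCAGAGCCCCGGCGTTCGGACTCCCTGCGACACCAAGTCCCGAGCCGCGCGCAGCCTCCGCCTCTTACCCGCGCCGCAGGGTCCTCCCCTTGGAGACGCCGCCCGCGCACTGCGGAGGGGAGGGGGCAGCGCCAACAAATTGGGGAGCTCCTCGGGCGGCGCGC
Col4a2: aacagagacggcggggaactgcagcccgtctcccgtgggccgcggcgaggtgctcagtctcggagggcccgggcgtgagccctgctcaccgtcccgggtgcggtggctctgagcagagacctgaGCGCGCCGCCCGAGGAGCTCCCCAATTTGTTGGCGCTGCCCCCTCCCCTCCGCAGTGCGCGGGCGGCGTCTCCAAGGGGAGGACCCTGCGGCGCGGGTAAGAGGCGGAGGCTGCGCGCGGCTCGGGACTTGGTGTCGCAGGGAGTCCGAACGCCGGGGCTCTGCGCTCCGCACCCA

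The other head-to-head pairs of type IV genes overlapped between the groups. Col4a3 and Col4a4, partner chains of specialised basement membranes, had 174 and 76 counts over all libraries and differed by -0.54 ± 0.45 and 0.18 ± 0.54. Their annotated starts are 413 bases apart and their windows share the 88 bases at chr9:91323740-91323827, given on the plus strand in capitals throughout for comparison with the Col4a1 and Col4a2 window.
Col4a3 and Col4a4: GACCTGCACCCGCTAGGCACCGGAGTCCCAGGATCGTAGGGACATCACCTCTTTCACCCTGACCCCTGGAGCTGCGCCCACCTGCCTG
Col4a4 was at 0.246, 0.188 and 0.658 CPM in resveratrol and 0.288, 0.463 and 0.214 CPM in control. Col4a5 was at 37.4, 33.7 and 36.2 CPM in resveratrol and 43.4, 58.6 and 27.9 CPM in control (-0.28 ± 0.24), and Col4a6 averaged 3.98 ± 0.825 CPM in resveratrol and 5.16 ± 1.70 CPM in control. The annotated starts of Col4a5 and Col4a6 are 1415 bases apart on chromosome X, with no shared window.

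Blood vessel endothelial markers were set beside the type IV chains. All 7 listed markers had lower means in resveratrol, 5 with an unadjusted edgeR p under 0.05 (71.4%, against 11.7% of all tested genes). Their summed level was 280 to 357 CPM in resveratrol and 420 to 577 CPM in control, without overlap. The part of vessels in the type IV values was not tested. Col15a1 and Col18a1, multiplexins of basement membrane zones, both had lower means, with a class median of -0.75. Col15a1 was at 59.2, 66.8 and 98.8 CPM in the resveratrol libraries, against 232, 152 and 137 CPM in the control libraries. Its groups were clearly apart, and DESeq2 called it with all libraries and without each of the 6 (-1.21 ± 0.25; edgeR adjusted p = 0.111, DESeq2 adjusted p = 0.000299). The difference was -1.97 in the Sep pair and -0.83 in the Oct libraries. Col18a1, the precursor of the antiangiogenic fragment endostatin, was at 311, 267 and 368 CPM in the resveratrol libraries, against 481, 352 and 330 CPM in the control libraries. It overlapped between the groups (-0.30 ± 0.17; edgeR adjusted p = 0.380), and the difference was -0.11 without control 1 and -0.19 without resveratrol 2.

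Type VI collagen forms beaded microfibrils between stromal fibrils. All 5 tested chains had lower means, 3 of them without overlap, with an unadjusted p under 0.05 and called by DESeq2, with a class median of -0.66. Col6a1 was at 614, 597 and 550 CPM in the resveratrol libraries, against 1018, 1005.2 and 761 CPM in the control libraries. Col6a2 was at 555, 549 and 528 CPM in the resveratrol libraries, against 1039, 928 and 738 CPM in the control libraries. Both genes were tightly grouped in resveratrol and separate from control. Their log2 fold changes were -0.66 ± 0.13 for Col6a1 (edgeR adjusted p = 0.103, DESeq2 adjusted p = 0.000363) and -0.73 ± 0.13 for Col6a2 (edgeR adjusted p = 0.1002, DESeq2 adjusted p = 7.29e-05), and DESeq2 called both without each of the 6 libraries as well. They are neighbours on the chromosome, and their FPKM ratio was 1.33 to 1.41 in resveratrol and 1.25 to 1.39 in control, with overlap.

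The third chain of the common type VI heterotrimer differed in pattern. Col6a3 was at 445, 284 and 282 CPM in resveratrol and 632, 381 and 292 CPM in control, so the groups overlapped (-0.37 ± 0.30; edgeR adjusted p = 0.532). The Col6a3 to Col6a1 ratio was 0.270, 0.177 and 0.191 in resveratrol and 0.231, 0.141 and 0.143 in control, also with overlap, and replicate 1 was the highest library in each group. Col6a5 had the largest fold difference of all chains, with 1.17, 1.45 and 1.42 CPM in resveratrol against 17.6, 2.64 and 4.42 CPM in control (-2.60 ± 0.62; DESeq2 adjusted p = 0.00115). The size rested largely on control 1, which held 613 counts, against 97 and 165 in the other control libraries. The Oct libraries alone differed by -1.22, and DESeq2 did not call the gene without resveratrol 1 or without resveratrol 3 (highest adjusted p = 0.151). Col6a6 (-0.16 ± 0.37) had 183 counts in all. In the annotation Rpl29, a gene at 433 to 504 CPM here, overlaps Col6a4, Col6a5 and Col6a6. No source used here describes how reads in both Rpl29 and a chain were assigned, so the values of these chains are uncertain.

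Among the network collagens, Col8a1 and Col8a2 encode the chains of Descemet's membrane, the basement membrane of the corneal endothelium. Col8a1 was at 26.1, 24.6 and 27.6 CPM in the resveratrol libraries, against 33.3, 54.4 and 41.6 CPM in the control libraries. Control 2 was its highest library, unlike most chains, and the groups did not overlap (-0.72 ± 0.17; edgeR adjusted p = 0.125). DESeq2 called it (adjusted p = 0.00894), but not without resveratrol 1, resveratrol 2 or control 2. Col8a2, in which mutations cause an endothelial dystrophy in humans, was at 121, 131 and 128 CPM in resveratrol and 136, 203 and 136 CPM in control (-0.33 ± 0.16; edgeR adjusted p = 0.311). Control 2 stood above the other 5 libraries, and without it the difference was -0.11. Of the 7 chain ratios computed, that of Col8a1 to Col8a2 was the only one without overlap, at 0.263 to 0.301 in resveratrol and 0.340 to 0.426 in control. No test was made of it. Slc4a11, a marker of the corneal endothelium, was at 11.6 ± 3.41 CPM in resveratrol and 7.88 ± 1.63 CPM in control, with overlap. Cdh2, expressed in that layer and outside it, had a lower mean in resveratrol (-1.27) and was called by DESeq2. The part of the endothelial layer in the type VIII values was not tested.

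FACIT collagens, which sit on the surface of fibrils and link them to the matrix, did not share the pattern of the fibrillar chains. Of the 5 tested, 3 had higher and 2 had lower means, with a class median of 0.09. That median was -0.031 without resveratrol 1, -0.033 without control 2 and 0.30 without control 1, so its sign rests on single libraries. Col12a1, the most abundant, was at 1851, 962 and 1003 CPM in resveratrol and 1482, 1341 and 1114 CPM in control. Resveratrol 1 was its highest library of all, the groups overlapped, and the difference was -0.05 ± 0.25. It was 0.32 in the Sep pair and -0.32 in the Oct libraries, so its direction differed between the endings. Col14a1 was at 362, 308 and 278 CPM in the resveratrol libraries, against 276, 242 and 182 CPM in the control libraries. Every resveratrol library was above every control library, by a narrow margin between resveratrol 3 and control 1 (0.44 ± 0.17; edgeR unadjusted p = 0.0334, adjusted p = 0.222, DESeq2 adjusted p = 0.102). Its difference was 0.29 without control 3, and DESeq2 called it higher without control 1 (adjusted p = 0.0332). Col16a1, which occurs with both fibrils and microfibrils, was at 183, 126 and 137 CPM in resveratrol and 289, 218 and 148 CPM in control and overlapped (-0.56 ± 0.25, and -0.29 without control 1). Col22a1, a collagen of tissue junctions, was at 42.4 to 51.7 CPM in resveratrol and 35.2 to 57.3 CPM in control (0.11 ± 0.18). Col20a1 was at 1.56 to 2.38 CPM in resveratrol and 1.22 to 2.42 CPM in control (0.09 ± 0.32).

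Of the 4 transmembrane chains, 3 had lower means, and Col17a1 was by far the most abundant. Its product, also known as BP180, spans the membrane of basal epithelial cells in hemidesmosomes and ties them to the basement membrane. It was at 6736, 4043 and 4575 CPM in the resveratrol libraries, against 3858, 3407 and 3381 CPM in the control libraries. All resveratrol libraries were above all control libraries, and resveratrol 1 stood well above the other 5 (0.53 ± 0.20; edgeR unadjusted p = 0.0276, adjusted p = 0.208, DESeq2 adjusted p = 0.0605). The mean was 5118 ± 1427 CPM in resveratrol and 3549 ± 268 CPM in control. Without resveratrol 1 the log2 fold change of Col17a1 was 0.29, and DESeq2 called the gene higher without resveratrol 2 (adjusted p = 0.0131). Without resveratrol 1, 0 chains were higher at an unadjusted p under 0.05, against 2 with all libraries, and the same held without control 2 and without control 3, while 1 was higher without resveratrol 2. The epithelial marker sum above, in which resveratrol 1 was likewise the highest library, overlapped between the groups. In the basement membrane zone of the same epithelium, Col7a1, the collagen of anchoring fibrils, was at 236, 179 and 194 CPM in resveratrol and 368, 220 and 182 CPM in control, with overlap (-0.34 ± 0.25).

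The promoter window of Col17a1 (GRCr8, chr1:256518808-256519107, minus strand) is shown as that of the abundant chain with the opposite direction. Capitals mark TATAAA, beginning 161 and 112 bases before the annotated start, and ATTGG, the reverse complement of CCAAT, beginning 52 bases before it.
Col17a1: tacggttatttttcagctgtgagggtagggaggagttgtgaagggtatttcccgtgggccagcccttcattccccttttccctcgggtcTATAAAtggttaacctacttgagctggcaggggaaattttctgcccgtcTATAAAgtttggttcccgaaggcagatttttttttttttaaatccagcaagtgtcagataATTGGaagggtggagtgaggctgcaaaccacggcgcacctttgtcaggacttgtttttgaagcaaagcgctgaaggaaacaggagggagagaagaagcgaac

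The motifs are common letters and were counted on both strands in all windows. Windows were at hand for 34 of the 43 chains and 27457 genes. CCAAT was in 11 of the 34 collagen windows (32.4%) and in 37.7% of all windows, TATAAA in 4 (11.8%) and in 14.3%, and GGGCGG in 19 (55.9%) and in 34.9%. These are descriptions of letters, not of bound sites.

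The other transmembrane chains were rare. Col13a1 was at 0.956, 0.349 and 0.421 CPM in resveratrol and 1.75, 1.14 and 1.13 CPM in control, without overlap but with 209 counts in all (-1.22 ± 0.42; edgeR adjusted p = 0.216). Col23a1 was at 3.46 to 5.74 CPM in resveratrol and 4.33 to 6.58 CPM in control (-0.27 ± 0.25). Col25a1 was at 3.55 to 5.87 CPM in resveratrol and 3.97 to 6.35 CPM in control (-0.03 ± 0.26). Col28a1, of the anchoring and other class, was at 0.369 to 1.04 CPM in resveratrol and 0.509 to 0.747 CPM in control, with 134 counts in all (0.05 ± 0.44). These 3 chains overlapped between the groups.

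The make-up of the collagen transcripts differed between the groups. Collagen chains held 2.20%, 1.52% and 1.77% of all counts in the resveratrol libraries, against 3.24%, 2.61% and 2.06% in the control libraries, and resveratrol 1 exceeded control 3. Without Col17a1 the shares were 1.53%, 1.12% and 1.30% in resveratrol and 2.85%, 2.27% and 1.72% in control, and the groups no longer overlapped. Col17a1 is the abundant chain with the opposite direction, so leaving it out works toward this separation, which adds no evidence. Taken per length, as shares of the summed collagen FPKM, fibrillar chains held 50.4% ± 1.10 in resveratrol and 65.3% ± 3.16 in control (SD, n = 3 each). Transmembrane chains, nearly all Col17a1, held 25.8% ± 2.17 in resveratrol and 12.2% ± 2.12 in control. Their summed FPKM was 813 ± 209 in resveratrol and 561 ± 41.7 in control. That of fibrillar chains was 1579 ± 290 in resveratrol and 3097 ± 847 in control. FACIT chains held 5.96% ± 0.691 in resveratrol and 4.06% ± 0.163 in control, while their summed FPKM was 188 ± 49.9 in resveratrol and 190 ± 35.7 in control. Type VI chains held 9.13% ± 1.43 in resveratrol and 9.39% ± 0.593 in control, and type IV chains held 4.43% ± 1.03 in resveratrol and 5.11% ± 0.443 in control, both with overlap. With Col17a1 left out, fibrillar chains still held 67.9% ± 2.51 in resveratrol and 74.4% ± 1.95 in control.

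**Figure D4:**
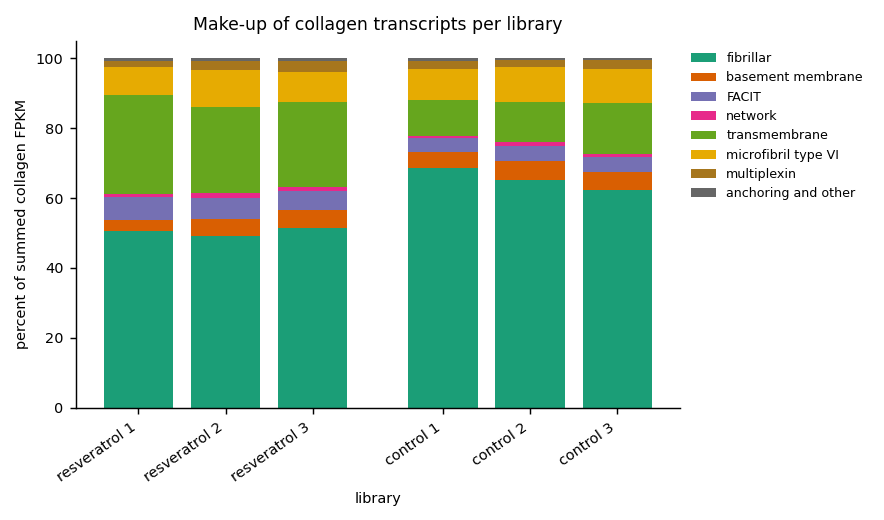
Stacked bars of the percent of summed collagen FPKM held by each class in the 3 resveratrol and 3 control libraries. The fibrillar segment spans 49.3% to 51.5% in resveratrol and 62.3% to 68.6% in control, and the transmembrane segment 24.4% to 28.3% in resveratrol and 10.5% to 14.6% in control.

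The order of the most abundant chains also differed. By FPKM, Col17a1 ranked first of all chains in each of the 3 resveratrol libraries, at 811 ± 209, followed by Col1a1 at 619 ± 149 and Col1a2 at 535 ± 117. These neighbours in the order lay within each other's spread across libraries, although the order was the same in each library. In the control libraries Col1a1 ranked first each time, at 1201 ± 358, followed by Col1a2 at 994 ± 226. Col17a1, at 558 ± 41.1, ranked above Col3a1, at 596 ± 199, in control 2 and control 3, and below it in control 1.

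Genes that fold, cut, link and bind collagen were described from 3 lists. Of 20 tested genes of collagen folding and modification, 17 had lower means (against 51.2% of all tested genes), with a median of -0.40. At an unadjusted edgeR p under 0.05, 10 were lower (against 11.7% of all tested genes). At that level 1, Colgalt2, was higher (against 7.84%). Serpinh1, the collagen chaperone HSP47, averaged 362 ± 46.8 CPM in resveratrol and 487 ± 17.5 CPM in control, without overlap (-0.43 ± 0.10; DESeq2 adjusted p = 0.0214). Sparc, a collagen-binding matrix protein, averaged 1755 ± 67.4 CPM in resveratrol and 2707 ± 333 CPM in control (-0.63 ± 0.12; DESeq2 adjusted p = 5.19e-05), and Fkbp10, a prolyl isomerase of the endoplasmic reticulum, differed by -0.61 ± 0.08. P4hb, protein disulfide isomerase, which serves many secreted proteins, differed by -0.08 ± 0.09. DESeq2 called 6 of the 20, all lower, where it called 4.64% of all genes lower.

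Of 16 tested genes of procollagen processing and cross-linking, 14 had lower means (87.5%, against 51.2% of all tested genes), with a median of -0.57. At an unadjusted edgeR p under 0.05, 10 were lower (62.5%, against 11.7%). DESeq2 called 7 lower (43.75%, against 4.64% of all genes). The list of 16 also held the matrix proteins Fn1, Fbn1, Postn and Tnc, all with lower means. Of these, Postn and Tnc were lower at an unadjusted edgeR p under 0.05 and were called by DESeq2. Pxdn, which cross-links type IV collagen, averaged 114 ± 19.2 CPM in resveratrol and 222 ± 22.7 CPM in control (-0.96 ± 0.13; DESeq2 adjusted p = 9.66e-07), a difference close to that of Col4a1 and Col4a2. Loxl2, a lysyl oxidase, differed by -0.67 ± 0.09, and Postn, a matricellular protein, by -0.63 ± 0.19. Lox, the founding lysyl oxidase, averaged 325 ± 77.0 CPM in resveratrol and 321 ± 76.1 CPM in control, and Fn1, fibronectin, differed by -0.27 ± 0.29.

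Of 15 tested receptors and proteases of collagen, 12 had lower means (80.0%, against 51.2% of all tested genes), with a median of -0.65. At an unadjusted edgeR p under 0.05, 10 were lower (66.7%, against 11.7%), and 1, the integrin chain Itga2, was higher (6.67%, against 7.84%). DESeq2 called 6 lower (40.0%, against 4.64% of all genes). Mmp14, a membrane-bound collagenase, averaged 400 ± 31.5 CPM in resveratrol and 628 ± 73.1 CPM in control (-0.65 ± 0.11), Mmp2 differed by -0.62 ± 0.16, and Mmp9, a gelatinase also made by leukocytes, by -1.33 ± 0.26. Itgb1, the partner of all collagen-binding integrins, differed by 0.07 ± 0.09.

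**Figure D5:**
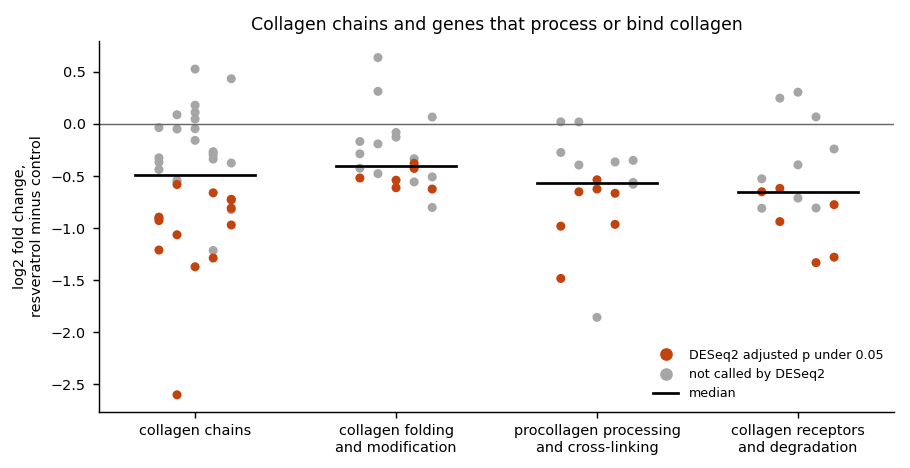
Log2 fold change, resveratrol minus control, of each tested collagen chain and of each tested gene of the 3 lists of genes that act on collagen. Orange-red points were called by DESeq2, grey points were not, and the black bar is the median, at -0.49 for the chains and -0.40, -0.57 and -0.65 for the lists.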

How the data were processed

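RNA from corneas was sequenced as 150 bp paired-end reads, per the labels' protocols. The authors deposited a table of raw gene counts and FPKM values for the same 17771 genes, and the FPKM file of each of the 6 libraries held the same values as that table. mRatBN7.2, R 3.2.0 and DESeq2 stand in the submitters' processing notes without a role, while aligner, annotation, strand setting and handling of shared reads are not given in the sources consulted. The count table's header ran 2 library names together, and columns were assigned by name; the SD of the log2 ratio of count to FPKM, relative to control 1, was at most 3.54e-10 for own columns and at least 0.271 for others.

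Counts were filtered with filterByExpr, scaled with TMM and tested with edgeR 4.0.16 (glmQLFit, glmQLFTest) in R 4.3.3, fitted on all genes and adjusted by Benjamini-Hochberg at 0.05. Standard errors come from limma 3.58.1 (trend, prior count 2). DESeq2 1.42.0 was an alternative. The scripts were tested on simulated data. CPM is not per length, so chains were compared with each other by FPKM. With 3 against 3 libraries an exact permutation test cannot go below 0.1, so none was made.

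Collagen chains, classes and gene lists were chosen with earlier results of these data known. Named chains were the 3 of highest mean FPKM in each class and the 5 of smallest p in each direction; others were named for their class, partner chain or lack of overlap after their values were seen. From each list the 3 genes of highest CPM and the 2 of smallest p were named, and Colgalt2, Itga2 and single markers after their values were seen. Sequences and gene neighbours come from RefSeq, GRCr8, which matched 43 of 43 symbols; coordinates are on that build, not the authors'. Depth was similar in all libraries, and counting error is relatively largest for chains with few counts.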

Additional observations from a re-analysis of the deposited data

How the results depend on the processing

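Precision was limited by 3 libraries per group, by control 3, which lay near the resveratrol libraries, and by few counts for the rare chains. The edgeR count of collagen chains called was 0 in every edgeR and limma alternative and 14 in DESeq2. Without each library DESeq2 kept 11 to 14 of these 14 (added after the data were seen), and 8 of the 14 kept their call without any of the 6. Some other chains gained a call in such a fit, among them Col11a1, Col16a1 and Col24a1 without control 3. Over all genes edgeR called 0, and 0 to 21 without each library, 21 being without control 3 and 1 without resveratrol 2. DESeq2 called 1007, and 390 to 1041 without each library (530 without resveratrol 1, 642 without resveratrol 2, 623 without control 1, 390 without control 2). Lower chains at an unadjusted p numbered 14 to 21 over all alternatives, and higher chains 0 to 3 without each library. The fibrillar median ran from -1.11 to -0.67, the basement membrane median from -0.72 to -0.046 without each library, the smallest without control 2. Without the 20 most counted genes, among them Col1a1, Col1a2 and Col17a1, the collagen share was 0.858% in resveratrol and 1.36% in control. By CPM in place of FPKM the FACIT share was 2.78 percentage points higher in resveratrol, against 1.90. Whether the replicate numbers pair the libraries was not settled. Same-numbered deviations correlated at -0.0225 to -0.00442, which cannot exclude a pairing. The replicate block left 0 chains called, 19 lower at an unadjusted p. Of the 25 chains refitted singly under each alternative, those whose direction turned had no DESeq2 call: Col23a1 (0.018) and Col25a1 (0.024) in the Oct libraries, and Col28a1 with the replicate block (-0.056), voom (-0.080), the Sep or Oct covariate (-0.051), the Oct libraries (-0.35) and log2(FPKM + 0.1) (-0.014). Without each library Col12a1 ran from -0.41 to 0.12, Col20a1 from -0.15 to 0.30, Col22a1 from -0.033 to 0.34, Col25a1 from -0.18 to 0.18, Col28a1 from -0.53 to 0.32, Col4a4 from -0.55 to 0.54, Col4a5 from -0.51 to 0.0047, Col6a3 from -0.61 to 0.0088 and Col7a1 from -0.53 to 0.019. Of the 11 tested chains not refitted singly, Col11a2 (0.16) and Col6a6 (0.086) were higher in the Oct libraries against lower means over all. The cause was not tested.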
